A study of Mus musculus with 9 samples.

Results

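The genes described here are 10 genes known from fat cells, measured in mouse calf muscle under an ammonium acetate load. They were taken by symbol from the deposited expression table, where all 10 were found among 35275 genes. They comprise 4 secreted proteins (Adipoq, Lep, Retn and Cfd), 3 coat proteins of the lipid droplet (Plin1, Plin4 and Cidec), the fatty acid carrier Fabp4, the desaturase Scd1 and the nuclear receptor Pparg. The study holds 5 libraries of gastrocnemius from wild type C57BL/6J mice given ammonium acetate (2.5 mmol/kg/day, libraries 4 to 8) by an implanted Alzet osmotic minipump. It sets them against 4 libraries from mice whose pump held sterile phosphate buffered saline (PBS, libraries 4, 5, 7 and 8). All mice were 8 to 10 weeks old, and the muscle was taken after 4 weeks and flash frozen. The labels do not tie each library to its own animal, so the p-values reflect only how these libraries vary, which may be technical. Values are FPKM (fragments per kilobase of gene, scaled to the library's total), and depth, recovered from the low values, ranged from 24930547 to 41780251 reads per library.

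White fat cells store triglyceride in a single large droplet coated by perilipins, and release fatty acids from it when hormones call for fuel. They also secrete adipokines, such as adiponectin and leptin, which act on muscle, liver and brain. In skeletal muscle, fat cells lie between the fibre bundles and around vessels and nerves, while the fibres themselves keep small droplets for oxidation. A sample of whole muscle therefore mixes fat cell RNA with fibre RNA, and in such bulk samples fewer cells of a type and less RNA per cell cannot be told apart.

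No difference in the 10 genes passed the test against the spread of the libraries, and the values of single libraries ranged far more widely than the group means. Of 11337 genes with a mean of at least 0.5 FPKM, 0 passed an adjusted p of 0.05 (0%) by limma on log2(FPKM + 0.5) with Benjamini-Hochberg adjustment, and 0 of the 9 members tested passed. Without adjustment, 972 genes (8.57%) had p under 0.05, of which 364 lay higher and 608 lower in ammonium acetate, and 0 of the 9 members did. In all 10 members the ranges of the 2 groups overlapped, while 2.13% of the genes tested did not overlap. The 9 members had log2 fold changes (ammonium acetate over PBS) below 0, with a median of -0.48. Among all genes tested 56.1% were below 0, with a median of -0.03. A log2 fold change of -0.5 or lower was seen in 4 of the 9 (Adipoq, Retn, Plin1 and Scd1) and in 3.85% of all genes tested. Without PBS 7 the median of the members was -0.18, and without ammonium acetate 6 and 8 it was -0.16. Without PBS 4 it was -0.72, and 4 of the 9 (Adipoq, Plin1, Plin4 and Scd1) then had an unadjusted p under 0.05, as did 12.2% of the 11373 genes tested in those 8 libraries. The smallest adjusted p of the members in that fit was 0.409 by limma.

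**Figure D1:**
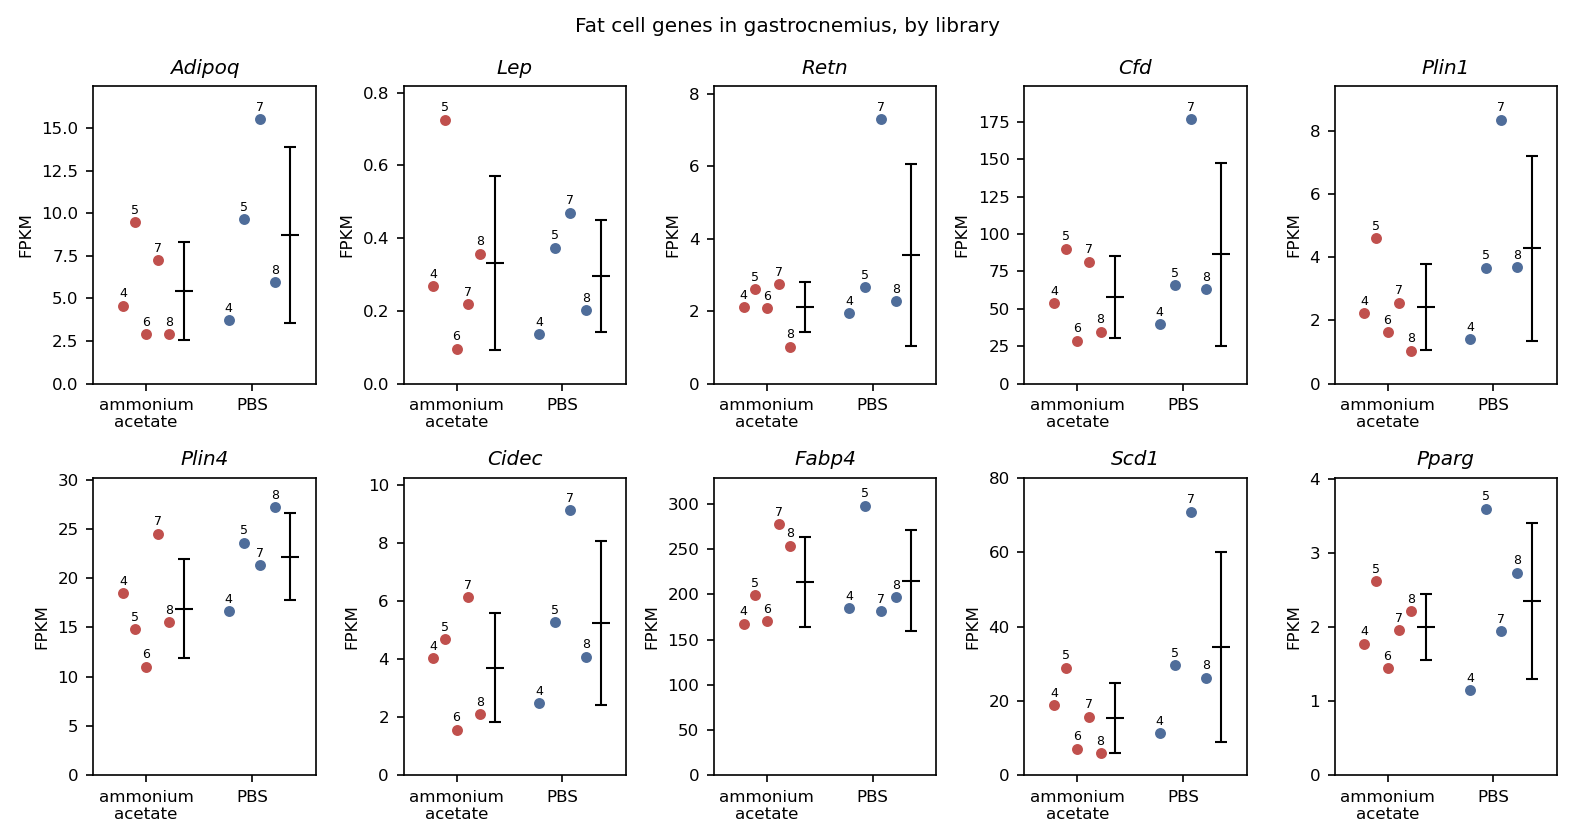
FPKM of each of the 10 genes (vertical axes, starting at 0) in ammonium acetate libraries (left, red, n = 5) and PBS libraries (right, blue, n = 4), with the library number above each point and the mean and SD as bars. PBS 7 holds the highest value in 6 of the 10 genes and the groups overlap in every panel.

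Mean levels per gene length differed between the members over the 9 libraries. In falling order of the mean, the ranges of neighbours overlapped, except for Lep, which lay below all others. Cfd in PBS 7, for example, reached 177 FPKM, above Fabp4 in ammonium acetate 4 at 168 FPKM. Fabp4 averaged 214 FPKM and Cfd 70.5 FPKM. Scd1 averaged 23.8 and Plin4 19.2 FPKM, levels within the spread of each other. Adipoq averaged 6.88, Cidec 4.39, Plin1 3.24, Retn 2.75 and Pparg 2.16 FPKM, and neighbours in this order overlapped in their ranges. Lep was lowest at 0.316 FPKM. PBS 7 was the highest library for 6 members. Ammonium acetate 6 was the lowest for 5 members and ammonium acetate 8 for 3.

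Adipoq encodes adiponectin, the most abundant hormone of fat cells, which raises fatty acid oxidation in muscle (ENSMUSG00000022878, chromosome 16, 23146536 to 23158028, mm10, plus strand). It measured 4.57, 9.47, 2.89, 7.24 and 2.90 FPKM in ammonium acetate libraries 4 to 8, against 3.74, 9.64, 15.5 and 5.94 FPKM in PBS libraries 4, 5, 7 and 8. The 2 highest values were PBS 7 and PBS 5, yet ammonium acetate 5 lay close to PBS 5 and the ranges overlapped. The means were 5.42 ± 2.88 FPKM in ammonium acetate (SD, n = 5) and 8.72 ± 5.16 FPKM in PBS (SD, n = 4). Adipoq thus had a log2 fold change of -0.60 (standard error 0.40, 95% interval -1.48 to 0.28, limma adjusted p = 0.534). With 1 library left out it ran from -0.92 (without PBS 4) to -0.28 (without PBS 7), and it was -0.16 without ammonium acetate 6 and 8.

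Cfd encodes adipsin, the protease complement factor D, which fat cells secrete (ENSMUSG00000061780, chromosome 10, 79890853 to 79892656, plus strand). It stood at 53.9, 90.2, 28.7, 81.5 and 34.7 FPKM in the ammonium acetate libraries, against 39.5, 66.0, 177 and 63.2 FPKM in the PBS libraries, in the order of their numbers. PBS 7 alone lay above ammonium acetate 5 and 7, and the other PBS libraries lay inside the ammonium acetate range. For Cfd the log2 fold change was -0.48 (standard error 0.42, limma adjusted p = 0.608). Without PBS 7 the PBS mean was 56.2 ± 14.5 FPKM (SD, n = 3), beside 57.8 ± 27.4 FPKM in ammonium acetate (SD, n = 5), and the log2 fold change was -0.063. Without PBS 4 it was -0.78, and without ammonium acetate 6 and 8 it was -0.0011.

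Retn encodes resistin, a small cysteine-rich hormone that in mice comes from fat cells and opposes insulin (ENSMUSG00000012705, chromosome 8, 3655770 to 3660110, plus strand). It measured 2.10, 2.61, 2.09, 2.75 and 1.02 FPKM in ammonium acetate, against 1.94, 2.66, 7.29 and 2.28 FPKM in PBS. Apart from PBS 7 at the top and ammonium acetate 8 at the bottom, the libraries of the groups lay together between 1.94 and 2.75 FPKM. Over all libraries Retn had a log2 fold change of -0.51 (standard error 0.32, limma adjusted p = 0.532), which was -0.69 without PBS 4, -0.14 without PBS 7 and -0.27 without ammonium acetate 6 and 8.

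Lep encodes leptin, which reports fat stores to the brain (ENSMUSG00000059201, chromosome 6, 29060220 to 29073877, plus strand). It rested on 8 to 64 reads per library and did not reach the level required for the test across genes. Its values were 0.267, 0.726, 0.0956, 0.217 and 0.357 FPKM in ammonium acetate, against 0.136, 0.374, 0.470 and 0.202 FPKM in PBS. The highest library was ammonium acetate 5, not PBS 7, and both the highest and the lowest value were in ammonium acetate. An exact two-sided permutation test over all arrangements of the group labels gave p = 0.865 for a difference of 0.043 on the log2(FPKM + 0.5) scale, where the smallest p possible is 0.00794.

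Plin1 encodes perilipin 1, the droplet coat of fat cells that holds back lipolysis until it is phosphorylated (ENSMUSG00000030546, chromosome 7, 79721164 to 79732776, minus strand). It measured 2.23, 4.61, 1.63, 2.56 and 1.04 FPKM in ammonium acetate, against 1.40, 3.67, 8.36 and 3.69 FPKM in PBS. PBS 7 was again highest, and PBS 4 lay below 4 of the 5 ammonium acetate libraries. Its difference on the log2 scale was -0.63 (standard error 0.41, 95% interval -1.52 to 0.27, limma adjusted p = 0.532). Leaving out PBS 4 gave -1.001, leaving out PBS 7 gave -0.26, and leaving out ammonium acetate 6 and 8 gave -0.25.

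Cidec, whose protein fuses lipid droplets into larger ones (ENSMUSG00000030278, chromosome 6, 113424634 to 113435760, minus strand), stood at 4.03, 4.69, 1.56, 6.13 and 2.10 FPKM in ammonium acetate and 2.48, 5.28, 9.13 and 4.08 FPKM in PBS. Ammonium acetate 7 was second only to PBS 7, and ammonium acetate 6 and 8 were the 2 lowest. Cidec had a log2 fold change of -0.45 (standard error 0.38, limma adjusted p = 0.593), which was -0.72 without PBS 4, -0.16 without PBS 7 and 0.036 without ammonium acetate 6 and 8.

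Plin4, a perilipin of small droplets that muscle fibres also express (ENSMUSG00000002831, chromosome 17, 56100591 to 56109803, minus strand), followed another order. It measured 18.5, 14.8, 11.0, 24.5 and 15.6 FPKM in ammonium acetate, against 16.7, 23.6, 21.3 and 27.2 FPKM in PBS. PBS 8 was highest, PBS 7 lay below PBS 5 and PBS 8, and ammonium acetate 7 was the single library of its group above PBS 5. The means were 16.9 ± 5.03 FPKM in ammonium acetate (SD, n = 5) and 22.2 ± 4.398 FPKM in PBS (SD, n = 4). On the log2 scale Plin4 differed by -0.41 (standard error 0.20, 95% interval -0.86 to 0.03, limma adjusted p = 0.527). With 1 library left out it ran from -0.56 (without ammonium acetate 7) to -0.28 (without ammonium acetate 6), and it was -0.21 without ammonium acetate 6 and 8. Once a trend of the values with gene length was removed, Plin4 differed by -0.23. The gene overlaps Hdgfl2 on the opposite strand, and whether the counting used strand is not stated in the labels.

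Scd1 encodes the desaturase that makes oleate from stearate and had the largest difference of the members (ENSMUSG00000037071, chromosome 19, 44394451 to 44407709, minus strand). It measured 18.8, 28.9, 7.14, 15.7 and 5.96 FPKM in ammonium acetate, against 11.3, 29.5, 71.0 and 26.2 FPKM in PBS. PBS 7 stood at more than 2 times any other library, and PBS 4 lay below 3 of the 5 ammonium acetate libraries. The means were 15.3 ± 9.38 FPKM in ammonium acetate (SD, n = 5) and 34.5 ± 25.6 FPKM in PBS (SD, n = 4). Scd1 had a log2 fold change of -1.09 (standard error 0.52, 95% interval -2.21 to 0.04, limma adjusted p = 0.527). It was -1.51 without PBS 4, -0.65 without PBS 7 and -0.45 without ammonium acetate 6 and 8.

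Fabp4 encodes the fatty acid carrier aP2, which fat cells, capillary endothelium and macrophages express (ENSMUSG00000062515, chromosome 3, 10204347 to 10208576, minus strand). It measured 168, 199, 170.2, 277 and 254 FPKM in ammonium acetate, against 185, 298, 181 and 197 FPKM in PBS. PBS 5 and ammonium acetate 7 and 8 were the 3 highest libraries, and PBS 7 was among the 4 lowest. The means were 214 ± 49.8 FPKM in ammonium acetate (SD, n = 5) and 215 ± 55.6 FPKM in PBS (SD, n = 4). The difference of -0.0094 on the log2 scale had a 95% interval of -0.43 to 0.41 (limma adjusted p = 0.985). Its sign changed with the scaling, being 0.037 under median-of-ratios scaling.

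Pparg encodes the nuclear receptor that drives fat cell differentiation and is also present in macrophages (ENSMUSG00000000440, chromosome 6, 115361221 to 115490401, plus strand). It measured 1.77, 2.61, 1.45, 1.96 and 2.22 FPKM in ammonium acetate, against 1.14, 3.60, 1.95 and 2.73 FPKM in PBS. PBS held both the highest library (5) and the lowest (4), so that all ammonium acetate values lay inside the PBS range. Pparg differed by -0.13 on the log2 scale (95% interval -0.65 to 0.40, limma adjusted p = 0.810), by -0.37 without PBS 4 and by 0.071 without PBS 5. The antisense gene Gm44079 overlaps Pparg, and whether the counting kept their strands apart is not stated.

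**Figure D2:**
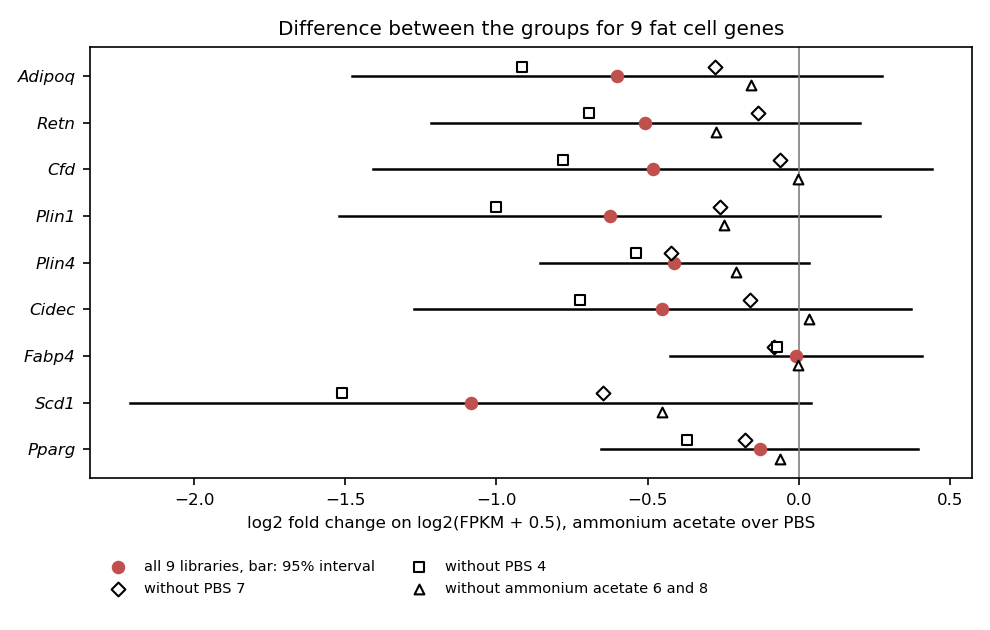
Log2 fold change of each of the 9 tested genes, ammonium acetate over PBS, on log2(FPKM + 0.5) (horizontal axis), with its 95% interval as a bar. Open diamonds leave out PBS 7, open squares PBS 4, and open triangles ammonium acetate 6 and 8. Every interval with all 9 libraries includes 0, and in Scd1, for example, the value is -1.51 without PBS 4 and -0.65 without PBS 7.

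The spread between libraries of 1 group was unusually wide for most members. The within-group SD of log2(FPKM + 0.5) was 0.98 for Scd1, 0.80 for Cfd, 0.77 for Plin1, 0.76 for Adipoq, 0.70 for Cidec and 0.60 for Retn. The median over all genes tested was 0.23, and between 97.6% and 99.4% of them had a smaller SD than these 6. Pparg (0.42), Plin4 (0.36) and Fabp4 (0.33) varied less, but still more than 90.9%, 85.1% and 80.3% of the genes tested. From the lowest to the highest library Scd1 spanned 11.9-fold, Plin1 8.06-fold and Cfd 6.15-fold, and Fabp4 spanned 1.78-fold.

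These wide differences were shared. Across the 9 libraries Cfd, Plin1, Scd1 and Cidec varied with Adipoq, as did Retn. On log2(FPKM + 0.5), Pearson's r with Adipoq was 0.96 for Cfd (exact permutation p = 8.5e-05, adjusted p = 0.000432 over the 9 members compared) and Spearman's rho was 0.95 (adjusted p = 0.00159). For Plin1 r was 0.95 and rho 0.87, for Scd1 0.94 and 0.93, for Cidec 0.94 and 0.95, and for Retn 0.85 and 0.90. By exact permutation these 4 had a raw p of 0.000193 to 0.00024 for r, each 0.000432 after adjustment, and the adjusted p for rho ran from 0.00159 to 0.00811. With PBS 7 and ammonium acetate 6 left out, the 2 libraries farthest from the median of Adipoq, r was 0.92 for Cfd, 0.92 for Plin1, 0.87 for Scd1, 0.88 for Cidec and 0.87 for Retn. After subtraction of the group means it was 0.95, 0.94, 0.94, 0.93 and 0.82 in the same order. The points of all these relations share the same 9 libraries and their scaling.

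The remaining 4 members had lower correlations with Adipoq. For Lep r with Adipoq was 0.66 (exact permutation p = 0.0534, adjusted p = 0.0801) and rho 0.73 (p = 0.0311, adjusted p = 0.0467), and r was 0.50 without PBS 7 and ammonium acetate 6. For Plin4 r was 0.55 and rho 0.52 (exact permutation adjusted p = 0.164 and 0.182). For Pparg r was 0.51 and rho 0.52 (exact permutation adjusted p = 0.185 and 0.182). For Fabp4 r was 0.18 and rho 0.35 (exact permutation adjusted p = 0.627 and 0.359).

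Ratios to Adipoq within each library were narrow for Cfd, Plin1 and Cidec and wide for Fabp4. The Cfd to Adipoq ratio of FPKM lay between 6.84 and 12.0, a 1.75-fold range, although Cfd itself spanned 6.15-fold. The Plin1 ratio spanned 1.76-fold, the Cidec ratio 1.78-fold and the Scd1 ratio 2.22-fold. For Fabp4 the ratio ran from 11.6 in PBS 7 to 87.5 in ammonium acetate 8, a 7.52-fold range, wider than the range of Fabp4 itself. The Scd1 to Adipoq ratio averaged 2.77 ± 0.848 in ammonium acetate (SD, n = 5) and 3.77 ± 0.836 in PBS (SD, n = 4), a difference that was not tested. The Cfd ratio averaged 10.9 ± 1.11 in ammonium acetate and 9.85 ± 2.04 in PBS.

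**Figure D3:**
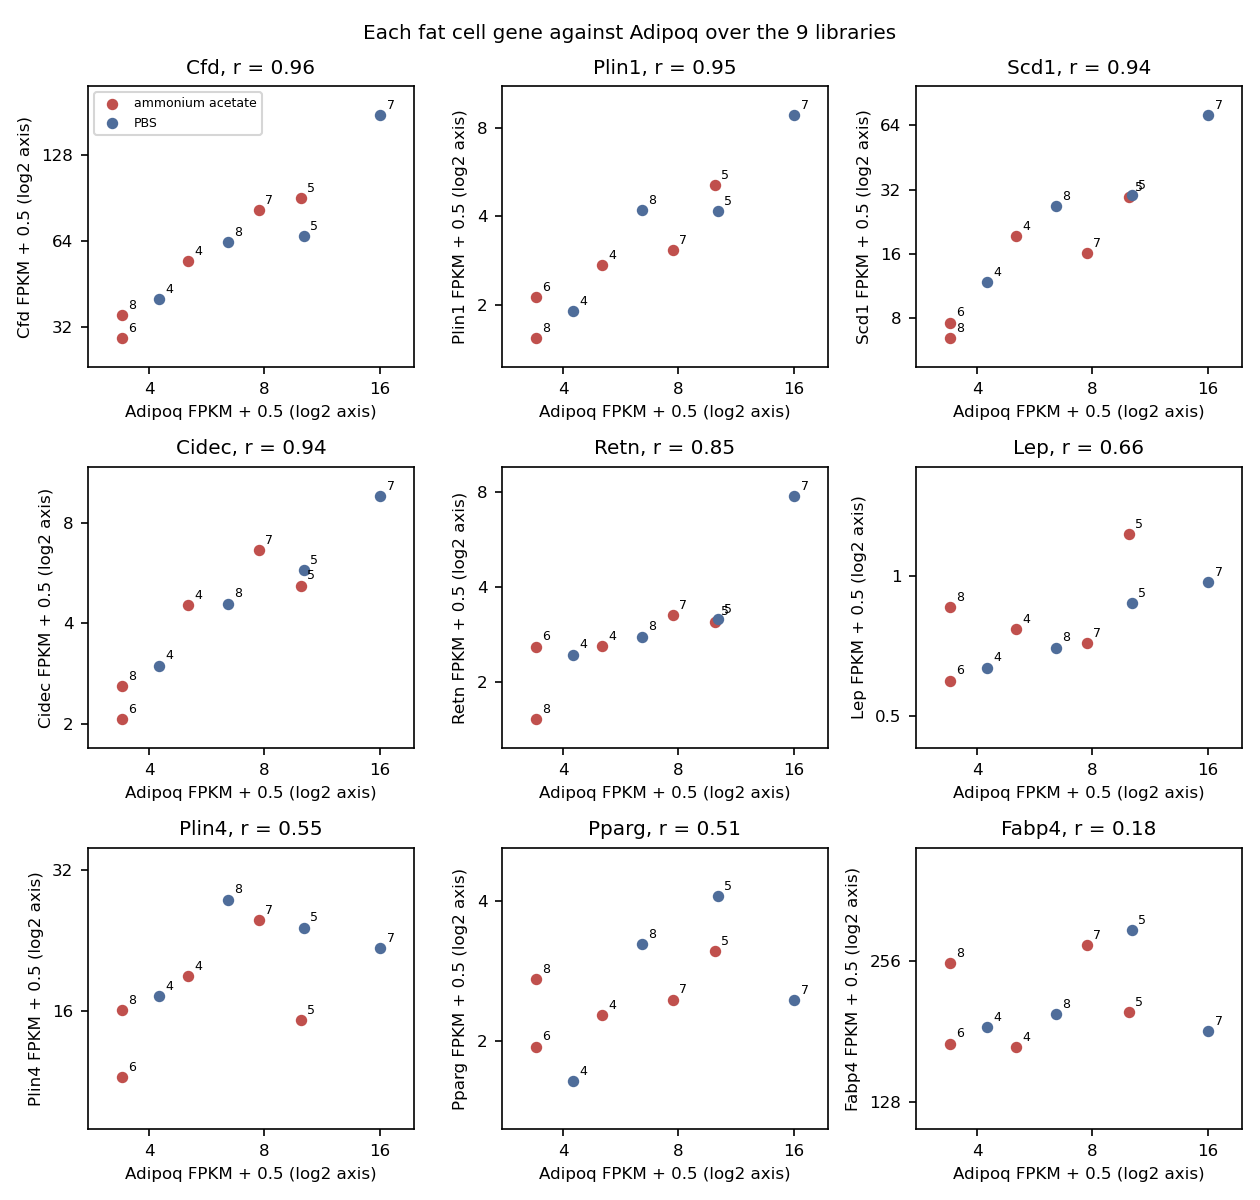
FPKM + 0.5 of each of the other 9 genes (vertical axes, log2 scale) against that of Adipoq (horizontal axes, log2 scale) in ammonium acetate libraries (red, n = 5) and PBS libraries (blue, n = 4), with library numbers and Pearson's r over the 9 libraries. Cfd, Plin1, Scd1 and Cidec lie near a line from ammonium acetate 6 and 8 at the lower end to PBS 7 at the upper end, and Fabp4 does not.

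Because Cfd, Plin1 and Cidec varied with Adipoq over the libraries, their promoters are shown with that of Adipoq, as RefSeq gives them on GRCm38.p6 (250 bases before the start site and 50 after, 5′ to 3′ along the gene). Of the 10 members, 8 had an entry. Scd1, which also varied with Adipoq (r = 0.94), and Fabp4 had none and were not searched. Pparg had 3 entries and Cidec 2, and only the entry whose start lay nearest the deposited gene start was searched. For Pparg that start lay 77 bases away. The windows are chr16:23146286-23146585, plus strand, for Adipoq, chr10:79890603-79890902, plus strand, for Cfd, chr7:79732727-79733026, minus strand, for Plin1, and chr6:113435711-113436010, minus strand, for Cidec. Capitals mark matches, on either strand, to any of the 5 motifs searched: AGGTCA, the core bound by PPAR and RXR receptors, its direct repeat AGGTCANAGGTCA (DR1), the C/EBP motif TTGCNNAA, the CCAAT box and the TATAAA box.
Adipoq: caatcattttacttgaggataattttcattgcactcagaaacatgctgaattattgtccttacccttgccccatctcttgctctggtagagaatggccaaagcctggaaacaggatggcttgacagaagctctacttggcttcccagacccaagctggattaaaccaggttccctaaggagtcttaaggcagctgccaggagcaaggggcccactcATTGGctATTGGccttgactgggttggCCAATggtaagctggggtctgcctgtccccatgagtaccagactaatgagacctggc
Cfd: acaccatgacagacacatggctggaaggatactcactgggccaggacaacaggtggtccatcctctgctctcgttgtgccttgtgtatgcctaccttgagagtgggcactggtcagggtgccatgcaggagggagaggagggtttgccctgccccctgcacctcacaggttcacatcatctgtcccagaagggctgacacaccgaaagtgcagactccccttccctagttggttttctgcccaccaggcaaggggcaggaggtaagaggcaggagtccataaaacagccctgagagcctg
Plin1: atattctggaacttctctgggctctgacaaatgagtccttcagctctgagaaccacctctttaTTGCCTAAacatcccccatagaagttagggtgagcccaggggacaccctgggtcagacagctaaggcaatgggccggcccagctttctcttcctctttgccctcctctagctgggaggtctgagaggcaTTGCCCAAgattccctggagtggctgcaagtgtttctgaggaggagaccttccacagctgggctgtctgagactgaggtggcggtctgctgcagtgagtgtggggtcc
Cidec: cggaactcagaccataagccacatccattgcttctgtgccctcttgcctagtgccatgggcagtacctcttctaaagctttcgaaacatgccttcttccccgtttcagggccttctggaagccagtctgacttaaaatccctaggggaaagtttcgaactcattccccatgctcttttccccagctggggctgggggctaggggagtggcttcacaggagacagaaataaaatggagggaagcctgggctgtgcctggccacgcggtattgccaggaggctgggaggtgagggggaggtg

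The Adipoq window held 3 CCAAT boxes, whose first bases lie at -34, -27 and -7 relative to the start site, and 37.4% of 32851 mouse promoter windows hold at least 1. The Plin1 window held 2 matches to TTGCNNAA at -187 and -58, a motif found in 10.8% of all windows. The Cfd and Cidec windows held no match, and neither did that of Retn. Among the other members the Lep window held TTGCNNAA at -55, the Plin4 window CCAAT at -18 and the Pparg window AGGTCA at -28. AGGTCA occurs in 16.3%, the DR1 in 0.0396% and TATAAA in 13.6% of all windows. No member window searched held the DR1 or TATAAA, and the other entries of Pparg and Cidec were not searched. A match describes these letters only.

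Outside the 10 members, the genes whose values lay closest to those of Adipoq over the 9 libraries were Cdo1, C4b, Mrap, Cyp2e1, Sfxn1, Tmem45b, Serpina3c, Slc1a5, Rap2a and Fscn1, in falling order of r. Pearson's r ran from 0.97 for Cdo1 to 0.91 for Fscn1, and 0.0971% of the 11328 genes compared reached 0.9, while the median r was 0.19. Cdo1, a cysteine dioxygenase, measured 3.18 ± 1.46 FPKM in ammonium acetate (SD, n = 5) and 5.36 ± 2.56 FPKM in PBS (SD, n = 4). Mrap, an accessory protein of the ACTH receptor, measured 0.749 ± 0.589 FPKM in ammonium acetate and 1.12 ± 0.852 FPKM in PBS. Cyp2e1, a cytochrome P450, measured 8.12 ± 5.05 FPKM in ammonium acetate and 12.9 ± 7.53 FPKM in PBS. All 10 were highest in PBS 7, where Cyp2e1 reached 23.1 FPKM. Their log2 fold changes ran from -0.67 for Cdo1 to -0.22 for Serpina3c, and none passed the threshold (limma adjusted p from 0.527 to 0.658). C4b may share reads with its near copy C4a. These genes were picked for their likeness, so r has no test here.

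Other genes of fat cell biology were examined as 7 whole lists. None of their tested genes passed an adjusted p of 0.05. Of the other fat cell markers, 11 of 17 in the table were tested, 9 had a fold change below 0 and 2 above, with a median of -0.20 (-0.31 without PBS 4, -0.062 without PBS 7). Aqp7, the glycerol channel of fat cells, measured 4.28 ± 1.10 FPKM in ammonium acetate (SD, n = 5) and 5.65 ± 0.935 FPKM in PBS (SD, n = 4). Pck1, whose enzyme supplies the glycerol backbone for triglyceride, measured 1.48 ± 2.07 FPKM in ammonium acetate and 2.63 ± 1.38 FPKM in PBS. Ammonium acetate 7 held 5.17 FPKM of Pck1 while the other 4 libraries of its group lay between 0.499 and 0.657 FPKM. In this list 3 genes had r of at least 0.8 with Adipoq (Mrap, Tusc5 and Cebpa).

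The genes of fatty acid and triglyceride synthesis lay lower in ammonium acetate in 16 of 18 cases, with a median log2 fold change of -0.33. Leaving out PBS 7 gave -0.34, and leaving out ammonium acetate 6 and 8 gave -0.12. An unadjusted p under 0.05 was found for 4 of the 18, beside 8.57% of all genes tested. Gpam, the first acyltransferase of triglyceride synthesis, measured 37.0, 33.7, 18.8, 24.7 and 19.6 FPKM in ammonium acetate, against 26.4, 51.0, 37.4 and 42.5 FPKM in PBS, and the groups overlapped. Scd2, a paralog of Scd1, measured 5.49 ± 2.24 FPKM in ammonium acetate (SD, n = 5) and 8.20 ± 1.12 FPKM in PBS (SD, n = 4), a log2 fold change of -0.62 (limma adjusted p = 0.527). Reads shared between Scd1 and Scd2 cannot be judged from the table.

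Lipid droplet and lipolysis genes other than the members were below 0 in 9 of 14 cases, with a median of -0.08. That median turned with single libraries, being -0.20 when PBS 7 was left out and 0.06 when PBS 5 was. It was 0.007 when ammonium acetate 5 was left out and 0.011 when ammonium acetate 6 was. Mgll, the monoglyceride lipase, measured 12.4 ± 2.93 FPKM in ammonium acetate and 15.9 ± 3.73 FPKM in PBS. Fitm1, which helps droplets form in muscle, measured 142 ± 28.7 FPKM in ammonium acetate and 121 ± 16.9 FPKM in PBS. Plin2, the droplet coat protein found in many tissues, measured 16.3 ± 1.495 FPKM in ammonium acetate and 17.1 ± 1.71 FPKM in PBS. Fatty acid uptake genes were below 0 in 8 of 10 cases, median -0.13, which ran from -0.30 without ammonium acetate 7 to -0.031 without PBS 5. Slc27a1, a fatty acid transporter of muscle and fat, had ranges that did not overlap, at 27.0, 20.5, 23.3, 28.8 and 25.6 FPKM in ammonium acetate and 30.1, 45.4, 29.3 and 38.0 FPKM in PBS. It was the 1 gene of the 10 in this list without overlap, beside 2.13% of all genes tested. Slc27a1 had a log2 fold change of -0.49 (standard error 0.15), which did not pass over all genes (limma adjusted p = 0.527). Lpl, the lipoprotein lipase, measured 192 ± 68.9 FPKM in ammonium acetate and 272 ± 107 FPKM in PBS.

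Transcription factors of fat cell formation were below 0 in 16 of 22 cases, with a median of -0.18 (-0.04 without ammonium acetate 6 and 8), and 6 of the 22 had an unadjusted p under 0.05, beside 8.57% of all genes tested. Leaving out PBS 4 gave a median of -0.31. Zfp423, a factor that commits precursors to fat, measured 2.06 ± 0.448 FPKM in ammonium acetate and 2.88 ± 0.332 FPKM in PBS. Prdm16, a regulator of brown fat, measured 0.445 ± 0.184 FPKM in ammonium acetate and 0.753 ± 0.129 FPKM in PBS. The retinoid receptor Rxrg, a partner of Pparg, was on the other side at 50.5 ± 14.4 FPKM in ammonium acetate and 36.5 ± 5.37 FPKM in PBS (log2 fold change 0.43). It is named here after its values were seen. Adipokine receptors were below 0 in 3 of 5 cases, with the leptin receptor Lepr at 0.398 ± 0.203 FPKM in ammonium acetate and 0.730 ± 0.461 FPKM in PBS. Adipor1, the main adiponectin receptor of muscle, measured 145 ± 28.3 FPKM in ammonium acetate and 123 ± 16.5 FPKM in PBS. Of the brown and beige fat genes 5 were tested, 4 above 0 and 1 below, median 0.19, which ran from 0.31 without ammonium acetate 4 to 0.027 without PBS 7 and was 0.01 without ammonium acetate 6 and 8. Among them was Cox8b, which muscle fibres also express, at 549 ± 122 FPKM in ammonium acetate and 446 ± 103 FPKM in PBS. Ucp1, the uncoupling protein that defines brown fat, had 0 reads in every library, which allows up to 0.0437 to 0.0732 FPKM (3 reads per library, counting error only).

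**Figure D4:**
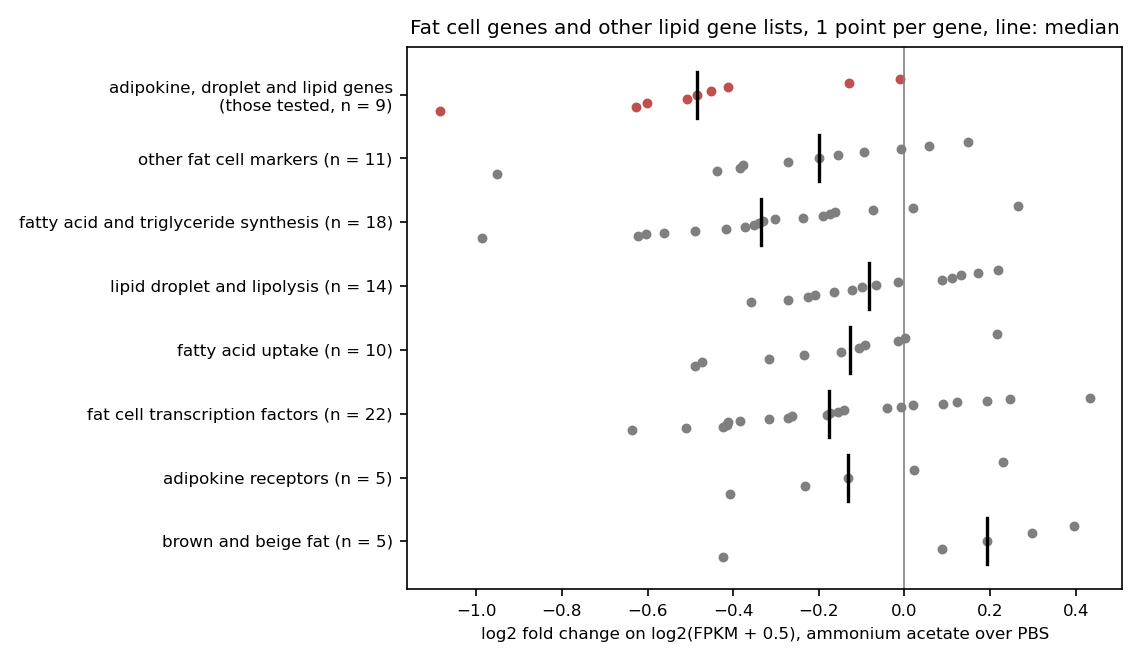
Log2 fold change on log2(FPKM + 0.5), ammonium acetate over PBS (horizontal axis), of each tested gene in the fat cell genes (red, top) and the 7 other lists (grey), with each list's median as a black line. The medians are -0.48 for the fat cell genes and -0.33 for fatty acid and triglyceride synthesis with all libraries, but -0.18 and -0.34 without PBS 7, and no gene shown passed the threshold.

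The label of fat cell genes was set against markers of the cell types that muscle can hold. The summed FPKM of 7 fat cell markers ran from 38.2 to 114 in ammonium acetate and from 51.5 to 217 in PBS, 6 of the 7 were tested, and none was at 0 in any library. That sum includes Adipoq, Plin1, Cidec and Cfd themselves, and Cfd makes up most of it. Fast fibre markers summed to 68080 to 97510 FPKM in ammonium acetate and 67020 to 81950 FPKM in PBS. Of the other cell types, the markers of fat and connective tissue progenitors had fold changes below 0 in 9 of 9 tested genes, those of endothelium in 10 of 11, of macrophages in 8 of 8, of Schwann cells in 6 of 6 and of red blood cells in 5 of 5, beside 56.1% of all genes tested. Skin markers were above 0 in 8 of 8, fast fibre markers in 5 of 8 and slow fibre markers in 3 of 6, while both sebaceous gland markers tested were below 0. Most of the skin marker level that the 0.5 FPKM filter used came from ammonium acetate 5, so their sign largely follows from that library. Without ammonium acetate 5, 6 of the 8 skin markers were above 0, and their median fell from 0.93 to 0.019. Progenitor markers summed to 451 to 653 FPKM in ammonium acetate and 417 to 995 FPKM in PBS, and endothelial markers to 85.8 to 152 FPKM in ammonium acetate and 133 to 161 FPKM in PBS. Macrophage markers summed to 58.7 to 79.6 FPKM in ammonium acetate and 40.9 to 107 FPKM in PBS, and Schwann cell markers to 50.9 to 191 FPKM in ammonium acetate and 60.1 to 181 FPKM in PBS. Red blood cell markers did not overlap in their sums, at 108 to 164 FPKM in ammonium acetate and 167 to 221 FPKM in PBS. The gap between the groups was narrow and the difference in sums was not tested. Of all single genes tested, 2.13% did not overlap. Sebaceous gland markers summed to 16.1 to 19.96 FPKM in ammonium acetate and 17.3 to 21.8 FPKM in PBS. That list includes Plin2, which is found in many tissues and makes up most of each sum, such as 14.9 of 16.5 FPKM in ammonium acetate 4. Plin2 is also among the 2 sebaceous gland markers tested, so these values say little about sebaceous gland. No marker of these lists was at 0 in all 9 libraries. With all libraries the median log2 fold changes were -0.42 for progenitors, -0.38 for endothelium, -0.29 for macrophages, -0.36 for Schwann cells and -0.41 for red blood cells. With 1 library left out they ran from -0.52 to -0.22 for progenitors, -0.50 to -0.24 for endothelium, -0.54 to -0.15 for macrophages, -0.64 to -0.10 for Schwann cells and -0.54 to -0.34 for red blood cells. Without ammonium acetate 6 and 8 they were -0.21 for progenitors, -0.18 for endothelium and -0.23 for macrophages. In that setting they were -0.09 for Schwann cells and -0.55 for red blood cells. Their part in the results of the fat cell genes was not tested.

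Plin4 had high correlations with the markers of several cell types. Over the 9 libraries its r with the mean log2 level of 11 endothelial markers was 0.88 and rho was 0.90 (exact permutation p = 0.00135 for r, with adjusted p = 0.0485 for r and 0.073 for rho over the 36 relations of 9 lists and 4 members). Without ammonium acetate 6 and 8, the 2 farthest libraries, r was 0.76, and within groups it was 0.83. With the progenitor list Plin4 had r of 0.84 and rho of 0.80, and with the macrophage list r of 0.77 and rho of 0.83 (exact permutation adjusted p for r = 0.086 and 0.114). By adjusted p, no relation other than endothelium with Plin4 passed, and that one passed by r only. Fabp4 had r of 0.41 with the endothelial list (0.78 without ammonium acetate 6 and 8) and 0.25 with the macrophage list. With the fast fibre list its r was -0.82 (exact permutation adjusted p = 0.0862). With the Schwann cell list Fabp4 had r of 0.69 and rho of 0.72 (exact permutation adjusted p for r = 0.1997), and r was 0.065 without ammonium acetate 7 and PBS 5. Pparg had r of 0.82 with the progenitor list (exact permutation adjusted p = 0.086), and 0.60 without PBS 5 and 8. Adipoq had r of 0.68 with the endothelial list (0.24 without ammonium acetate 6 and 8). Its r was 0.66 with the progenitor list (0.89 without PBS 5 and 8) and 0.66 with the macrophage list (0.81 without PBS 4 and 8). None of these relations passed.

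Some libraries stood apart in other cell types. Ammonium acetate 5 had a sum of 94.5 FPKM over 10 skin epidermis markers, and the other libraries held 1.03 to 2.62 FPKM in ammonium acetate and 0.876 to 2.74 FPKM in PBS. It was also the highest library for Lep, and the highest of the ammonium acetate libraries for Adipoq, Cfd, Plin1 and Scd1. Without it the log2 fold changes were -0.11 for Lep and a median of -0.58 for the 9 tested members. PBS 7 had the lowest sum of slow fibre markers, 501 FPKM, followed by ammonium acetate 4 at 537 FPKM, and the other libraries held 877 to 1414 FPKM. The r between log2 reads and Adipoq was 0.08. Genes with a value above 0 were fewest in ammonium acetate 6 (14668 genes, 25673995 reads) and 8 (16008 genes, 35239160 reads). The other libraries held from 16708 such genes in PBS 4 to 18301 in ammonium acetate 7, and PBS 7 held 17256. Whether the number of genes found bears on the fat cell genes was not tested.

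**Figure D5:**
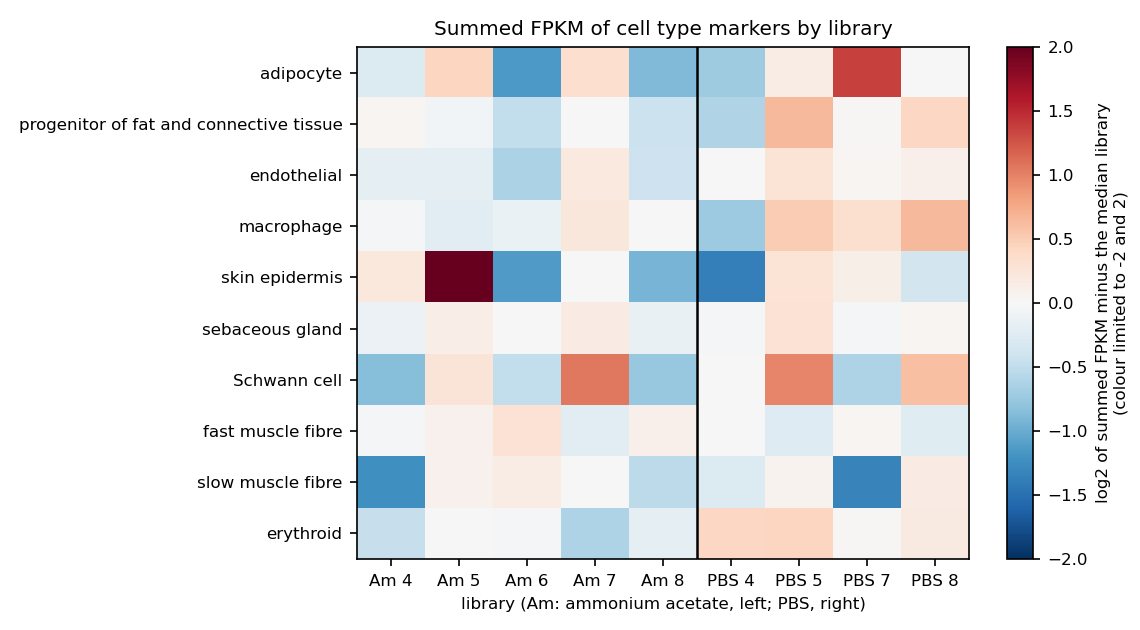
Summed FPKM of 10 lists of cell type markers (rows) in each library (columns, ammonium acetate left of the line, PBS right), as log2 of the sum minus that of the median library, with the colour limited to -2 and 2. The fat cell row is highest in PBS 7 and lowest in ammonium acetate 6 and 8, and the skin row is highest in ammonium acetate 5.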

How the data were processed

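RNA sequencing of gastrocnemius was deposited as a single table with 1 column per library. The authors deposited FPKM values per gene with Ensembl identifiers, symbols, mm10 positions and gene lengths. Per the submitters' processing notes, the build was mm10 and the tools included DESeq2, HTSeq, TopHat and STAR, their versions and roles unstated. FPKM times gene length summed to the same total in every library, and 100.0% of values above 0 were whole reads within 0.05 read, which gave the depths. FPKM is a share of a library, so a change in abundant fibre RNA moves every other gene.

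Genes with a mean of at least 0.5 FPKM were tested with limma 3.58.1 (R 4.3.3, mean-variance trend, two-sided) on log2(FPKM + 0.5), with Benjamini-Hochberg adjustment over 11337 genes. Fold changes on this scale understate those of low genes. The fit was tested on simulated data with planted changes. Correlations used exact permutation over all pairings of the 9 libraries. Alternatives covered the pseudocount, filter, scaling, library weights, a gene length trend (lowess, span 0.3), voom on the recovered reads, the replicate number as a block and libraries left out. Tables and figures used pandas 2.3.3, numpy 2.4.6 and, for drawing, matplotlib 3.10.9 under Python 3.11.15.

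The members, the gene lists and the libraries left out were chosen with earlier results of these data known. All 10 members are named, and from each other list the 2 tested genes of smallest unadjusted p. The 10 genes most like Adipoq were those of highest Pearson's r among tested genes, skipping predicted genes. Plin2, Rxrg, Tusc5 and Cebpa were named after their values were seen. Of the list genes, 1 symbol (Trarg1) was not matched.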

Additional observations from a re-analysis of the deposited data

Results flagged for a closer look

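In 6 of 86 groups of libraries screened, 1 library stood far from the others, its gap to the nearest taking up more of the group's range than Dixon's critical value (0.829 for 4 libraries, 0.71 for 5). Chance alone gives about 1 such group in 20. Retn stood at 7.29 FPKM in PBS 7, where the nearest PBS library held 2.66. Fabp4 stood at 298 FPKM in PBS 5, where the nearest held 197. Fitm1 stood at 146 FPKM in PBS 4, with the nearest at 116. In ammonium acetate 7, Pck1 stood at 5.17 FPKM, with the nearest at 0.657, and Lpl at 313 FPKM, with the nearest at 175. The summed skin epidermis markers stood at 94.5 FPKM in ammonium acetate 5, with the nearest at 2.62.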

How the results depend on the processing

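The counts of genes and of members past an adjusted p of 0.05 were 0 under all 20 alternatives, with smallest adjusted p values from 0.306 upwards over all genes and from 0.328 upwards over the members. An unadjusted p under 0.05 was not limited to the fit without PBS 4. Plin4 had one with median-of-ratios scaling, voom, library weights and without ammonium acetate 7, and Scd1 without ammonium acetate 5. The share of all genes under 0.05 was not taken in those fits. The members' median log2 fold change was -0.48 with all libraries and below 0 under each alternative, between -0.72 and -0.18 with 1 library left out and between -0.62 and -0.16 otherwise. Its lowest value came without PBS 4 and its highest of the single leave-outs without PBS 7, and it was -0.31 with library weights. PBS 7 and ammonium acetate 5 left out together, an alternative chosen after seeing the data, gave -0.27. Over all genes tested, the deviations of same-numbered libraries had correlations from -0.34 to -0.07, and the labels state no pairing. With the replicate block, where ammonium acetate 6 has no partner and drops out, the median was -0.28. Beside the fit without ammonium acetate 6, the block lowered the standard error of Adipoq from 0.41 to 0.23 and of Retn from 0.36 to 0.24. Those of Cfd, Plin1, Cidec, Scd1 and Pparg also fell. Those of Plin4 (0.18 to 0.20) and Fabp4 (0.20 to 0.21) rose. Signs turned for 4 members. Fabp4 was 0.037 under median-of-ratios scaling, 0.019 by voom and 0.065 with the replicate block, and ran from -0.11 to 0.16 with 1 library left out. Pparg ran from -0.37 to 0.071 and Lep from -0.11 to 0.15 with 1 library left out, and Lep was -0.0046 without PBS 7 and ammonium acetate 5. Cidec was 0.036 without ammonium acetate 6 and 8. With the gene length trend removed, Plin4 (-0.23) and Scd1 (-0.95) lay nearer 0 than in the fit that kept it. The other tested members lay further from 0, such as Cfd at -0.62 and Fabp4 at -0.16. The cause of these moves was not tested. Lep, at 8 to 64 reads, is limited by depth.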
